A study of Homo sapiens with 21 samples.

Results

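The nuclear genes for the proteins of the mitochondrial ribosome were examined in chromatin immunoprecipitation with sequencing (ChIP-seq) of CAMA1 cells. The genes were all protein-coding genes on chromosomes 1 to 22 and X whose symbol starts with MRPL (large subunit) or MRPS (small subunit) followed by a number. This rule gave 77 of 19974 genes, 49 MRPL and 28 MRPS genes. Each was scored for a peak within 1 kb of either annotated end in each of 14 peak lists. H3K4me3 lay at an end in both of its lists for 75 of the 77, beside 66.3% of all other genes. These 75 were set beside the 13189 other genes with H3K4me3 in both lists.

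The CAMA1 line comes from a breast cancer that expresses the oestrogen receptor, is FGFR1-amplified according to the labels, and was used at a passage below 10. FGFR1, a cell-surface kinase that binds fibroblast growth factors, was precipitated from cells transfected with siFOXA1, an siRNA against FOXA1, from cells transfected with the non-targeting siNT, and from untransfected cells. Untransfected cells were also used for RNA polymerase II with serine 5 phosphorylation (called Pol II S5P in the labels, with an antibody named there as anti-Rpb1 CTD), H3K27ac, H3K4me3 and FOXA1 (antibody named anti-HNF-3α, an older name of FOXA1). All cells of the 7 groups had been kept for 48 h in medium without estradiol, and transfected cells were collected 72 h after transfection. The sources used here name no clone and do not say how far FOXA1 was lowered. Each group had 2 libraries with a peak list each, called list 1 and list 2 after their replicate numbers, and no use was made of the 7 inputs.

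The mitochondrial ribosome makes the few proteins that the mitochondrial genome encodes, which are subunits of the respiratory chain and of the ATP synthase. Its RNAs come from the mitochondrion, but all its proteins are encoded in the nucleus, made in the cytosol and imported. Some of these proteins have counterparts in the bacterial ribosome, and others were added in the mitochondrial lineage. The nuclear promoters of such genes are commonly housekeeping promoters in CpG-rich DNA, and NRF1, the GABP factor of the ETS family and YY1 are known regulators of genes of mitochondrial function. H3K4me3 marks promoters, H3K27ac marks active promoters and enhancers, Pol II S5P accompanies polymerase that has just begun a gene, and FOXA1 is a pioneer factor of luminal breast cells.

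The promoters of the 4 genes with the strongest FGFR1 peaks in untransfected cells among those in the RefSeq promoter table (GRCh38.p14, the primary assembly also called hg38) are shown first, since the FGFR1 summits of both lists fall inside each of the printed stretches. Each sequence has 300 bases, 250 before the annotated start and 50 from it, read 5' to 3' on the strand of the gene. Capitals mark matches, on either strand, to GCGCNTGCG (NRF1), CCGGAAG (ETS) or AANATGGCG (YY1). The stretches are chr6:44127259-44127558 (minus strand), chr1:175023376-175023675 (minus), chr13:21176408-21176707 (plus) and chr9:135500432-135500731 (plus).
MRPL14: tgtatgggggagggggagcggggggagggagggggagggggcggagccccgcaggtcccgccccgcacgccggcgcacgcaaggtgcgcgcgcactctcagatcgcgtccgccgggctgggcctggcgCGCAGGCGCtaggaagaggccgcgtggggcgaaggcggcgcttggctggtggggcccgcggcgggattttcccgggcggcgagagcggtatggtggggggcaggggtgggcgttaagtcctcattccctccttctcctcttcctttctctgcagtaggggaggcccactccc
MRPS14: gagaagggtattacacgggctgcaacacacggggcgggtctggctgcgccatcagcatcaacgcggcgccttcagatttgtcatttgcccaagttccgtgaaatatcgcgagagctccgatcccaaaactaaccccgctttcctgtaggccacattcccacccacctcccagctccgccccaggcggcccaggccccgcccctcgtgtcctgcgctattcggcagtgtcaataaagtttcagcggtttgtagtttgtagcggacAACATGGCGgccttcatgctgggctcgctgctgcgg
MRPL57: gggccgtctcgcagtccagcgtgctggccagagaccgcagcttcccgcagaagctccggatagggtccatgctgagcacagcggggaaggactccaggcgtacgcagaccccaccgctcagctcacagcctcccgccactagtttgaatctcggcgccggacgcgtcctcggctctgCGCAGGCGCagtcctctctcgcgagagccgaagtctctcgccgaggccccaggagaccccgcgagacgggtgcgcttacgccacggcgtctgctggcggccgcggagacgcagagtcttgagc
MRPS2: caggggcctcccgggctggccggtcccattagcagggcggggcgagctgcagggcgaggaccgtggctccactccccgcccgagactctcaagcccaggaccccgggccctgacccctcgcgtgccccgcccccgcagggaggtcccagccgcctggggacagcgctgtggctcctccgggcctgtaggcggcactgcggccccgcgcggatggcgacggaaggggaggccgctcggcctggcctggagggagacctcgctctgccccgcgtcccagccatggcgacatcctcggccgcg

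The next 3 promoters belong to genes that carried Pol II S5P in both lists and FGFR1 in none of the 6 FGFR1 lists, and they are given as the counterpart to the first set. They lie at chr5:44808697-44808996 (plus), chr1:36464335-36464634 (minus) and chr12:6493213-6493512 (minus).
MRPS30: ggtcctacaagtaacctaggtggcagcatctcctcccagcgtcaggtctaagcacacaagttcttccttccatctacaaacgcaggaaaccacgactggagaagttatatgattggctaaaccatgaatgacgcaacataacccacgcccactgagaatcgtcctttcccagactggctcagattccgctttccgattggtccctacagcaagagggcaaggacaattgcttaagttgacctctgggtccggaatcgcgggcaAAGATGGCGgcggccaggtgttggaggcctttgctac
MRPS15: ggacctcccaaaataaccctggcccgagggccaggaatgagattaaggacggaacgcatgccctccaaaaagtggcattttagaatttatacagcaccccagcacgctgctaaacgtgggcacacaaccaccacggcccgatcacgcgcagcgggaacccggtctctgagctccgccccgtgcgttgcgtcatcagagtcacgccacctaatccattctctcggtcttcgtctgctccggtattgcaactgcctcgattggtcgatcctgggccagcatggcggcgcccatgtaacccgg
MRPL51: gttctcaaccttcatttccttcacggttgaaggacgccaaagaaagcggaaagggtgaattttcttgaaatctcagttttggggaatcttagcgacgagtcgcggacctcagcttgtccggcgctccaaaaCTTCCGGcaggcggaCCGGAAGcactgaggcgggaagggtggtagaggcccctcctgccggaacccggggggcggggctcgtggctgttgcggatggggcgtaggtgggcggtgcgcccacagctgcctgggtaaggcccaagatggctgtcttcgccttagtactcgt

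The FGFR1 summit lay 199 and 192 bases before the start in MRPL14, 32 and 22 bases before it in MRPS14, 3 and 10 bases after it in MRPL57, and 28 and 20 bases after it in MRPS2, in list 1 and list 2. GC content was 73.7% in MRPL14, 60% in MRPS14, 69% in MRPL57 and 77% in MRPS2, against 52.7% in MRPS30, 59% in MRPS15 and 60.3% in MRPL51. MRPL14 and MRPL57 each held an NRF1 match with 1 free base. MRPS14 and MRPS30 each held a YY1 match within the first bases of the transcript, starting at base 15 in MRPS14 and at base 14 in MRPS30. MRPL51 held an ETS match on each strand, and MRPS2 and MRPS15 held none of the 3 motifs. Both printed sets thus mix promoters with and without these letters.

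The lists as a whole set the depth behind every value below. They hold no read counts. The background recovered from the fold enrichments ran from 2.11 to 4.33 fragments per position in 12 lists and was not derived for Pol II S5P. It was 2.11 and 2.20 for siFOXA1, 2.19 and 2.19 for siNT, and 3.40 and 3.50 for untransfected FGFR1. The FGFR1 lists held 4332 and 5056 peaks after siFOXA1, 6007 and 6594 after siNT, and 5341 and 13135 in untransfected cells, on chromosomes 1 to 22 and X. The transfected lists were thus shallower than the untransfected ones, and their counts are not set against each other as a change. Since the labels do not tell whether both libraries of a group are from separate cultures, SDs and p-values measure the spread between these libraries, which may be technical. As a check of the labelled cell type, H3K4me3 lay in both lists at 9 of 10 luminal genes, 2 of 6 basal or mesenchymal genes, 2 of 4 haematopoietic genes, 0 of 2 endothelial genes and 3 of 4 neuronal or hepatic genes. Pol II S5P was in both lists at 8 of the luminal genes and at none of the others. The luminal gene without H3K4me3 within 1 kb of an end was ESR1, the oestrogen receptor gene. It had no Pol II S5P there either, and H3K27ac in both lists. KRT8 and KRT18, counted as 2 luminal genes, have ends 1005 bp apart. The check is therefore a coarse one.

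Mitochondrial ribosomal protein genes were almost all marked as active promoters, and Pol II S5P was found at more of them than at other marked genes. H3K4me3 lay at 75 of the 77, beside 66.3% of all other genes. H3K27ac lay at all 75 marked members in both lists (100%, 95% Wilson interval 95.1 to 100), beside a background of 95.1% of the other marked genes. Pol II S5P lay at 62 of 75 (82.7%, interval 72.6 to 89.6), beside 58.1%. In single lists the share with Pol II S5P was 96% and 82.7% among members (mean 89.3% ± 9.43, SD, n = 2), and 70.4% and 58.6% among other marked genes (64.5% ± 8.36). Members lay above the others by more in each list than the spread between the lists. FOXA1 lay at 41 of 75 (54.7%, interval 43.4 to 65.4), beside 44.1%. FGFR1 in untransfected cells lay at 26 of 75 (34.7%, interval 24.9 to 45.9), beside 29.7%, and the interval of the members holds the background share. After siNT it lay at 6 (8%, interval 3.72 to 16.4), beside 7.6%, and after siFOXA1 at 3 (4%, interval 1.37 to 11.1), beside 3.27%. Intervals cover counting error only, and each peak is taken as the authors called it.

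**Figure D1:**
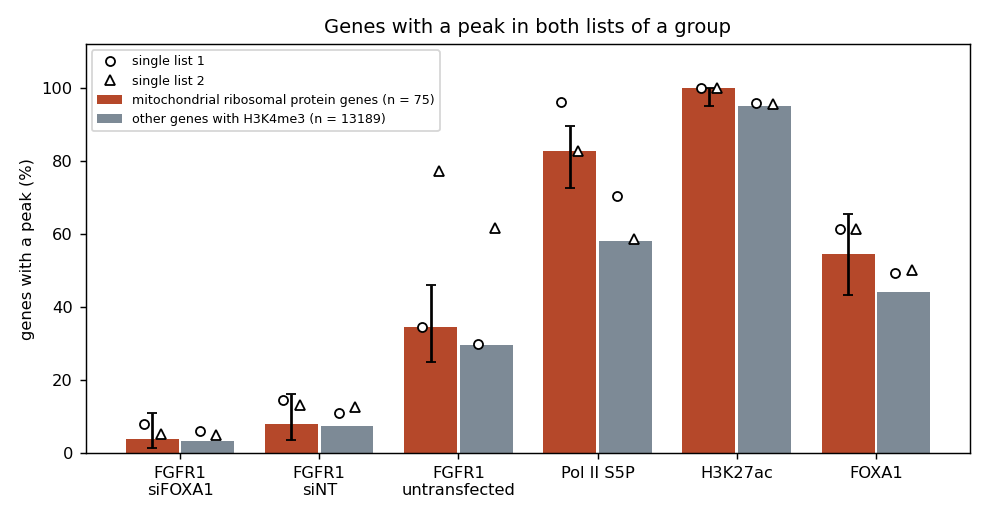
Share of genes (%) with a peak within 1 kb of an end in both lists of a group, for mitochondrial ribosomal protein genes (left bar, n = 75) and other genes with H3K4me3 (right bar, n = 13189). Error bars are 95% Wilson intervals, and the circle and triangle are the shares in list 1 and list 2 alone. Pol II S5P stands at 82.7% of members against 58.1% of other genes, whereas the 3 FGFR1 groups lie close to their background.

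Members also ranked somewhat higher than other marked genes within the H3K4me3 and Pol II S5P lists. Fold enrichment is the authors' own value per peak, and it is used here only to rank peaks within a list, as the percentage of that list's peaks with no higher fold enrichment. The median over members of the mean percentile of both lists was 89.5 for H3K4me3, beside 84.4 for other genes with peaks in both lists. It was 96.8 beside 95.5 for H3K27ac, 79.0 beside 73.0 for Pol II S5P, 58.5 beside 57.2 for FOXA1 and 66.7 beside 68.6 for untransfected FGFR1. The H3K4me3 peaks of the 75 members ranged in fold enrichment from 30.04 to 109 (median 96.7) in list 1 and from 30.6 to 114 (median 98.4) in list 2. Their Pol II S5P peaks ranged from 4.27 to 34.0 (median 10.0) in list 1 and from 5.0 to 24.2 (median 8.34) in list 2. MRPS18B, a small-subunit protein with 2 paralogues among the members, had the strongest Pol II S5P peak within 1 kb of an end in each list, at 34.0 and 24.2. Both of these peaks ended upstream of the annotated start of MRPS18B. The Pol II S5P peaks that covered this start had folds of 8.90 in list 1 and 10.1 in list 2. The strongest peaks therefore cannot be given to MRPS18B itself.

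**Figure D2:**
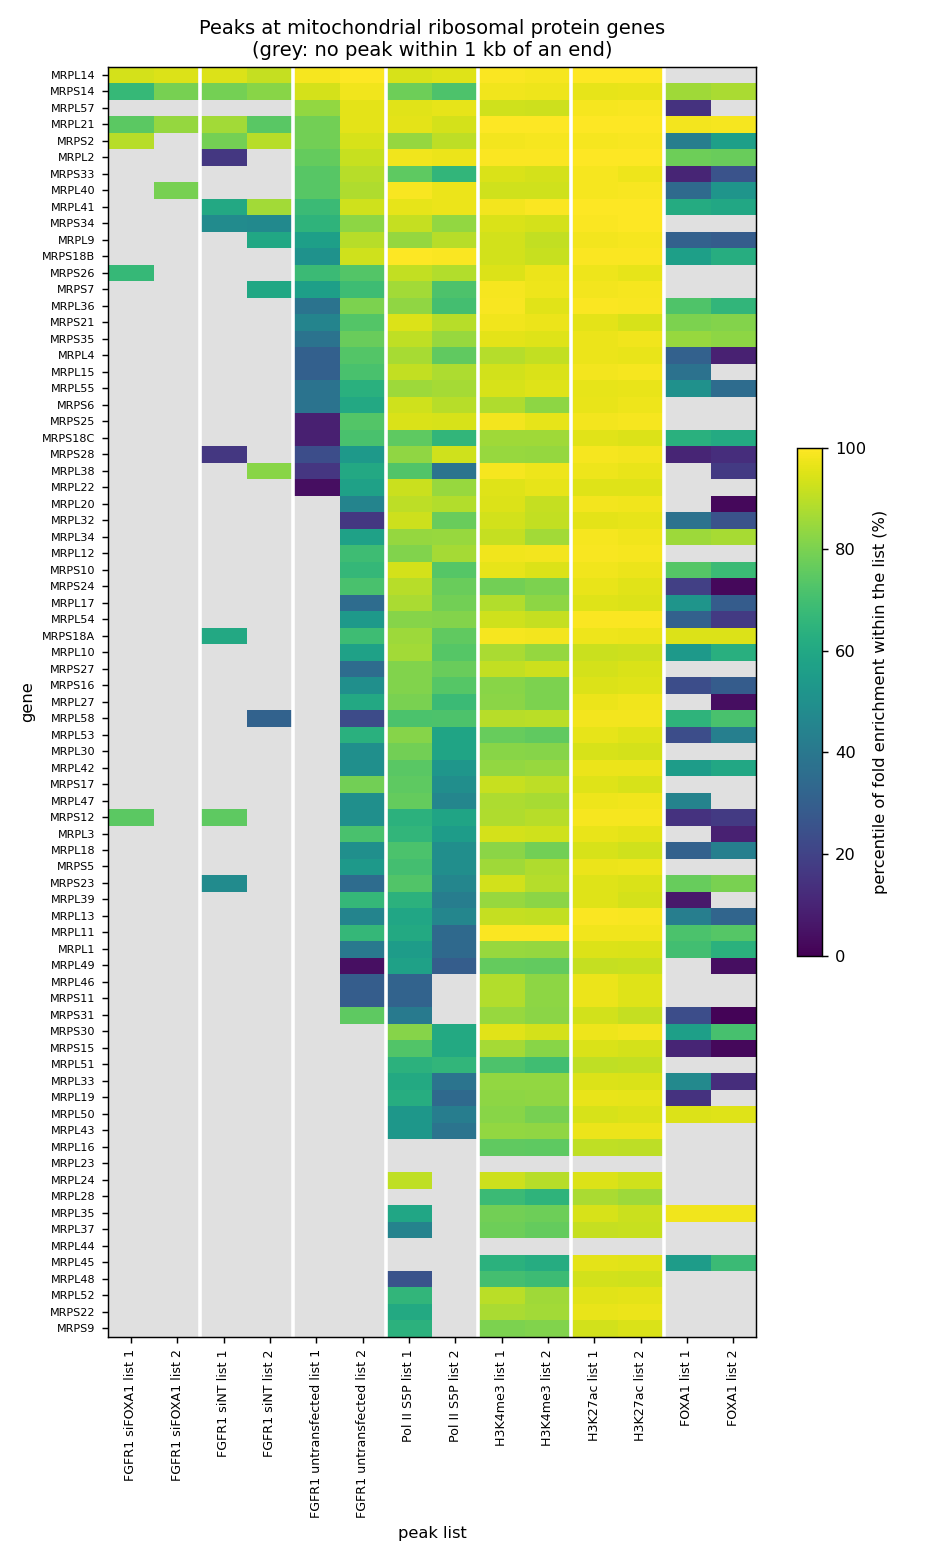
Each row is a mitochondrial ribosomal protein gene and each column a peak list. Colour gives the percentile of the fold enrichment of the strongest peak within 1 kb of an end among all peaks of that list, and grey means no peak. The H3K4me3 and H3K27ac columns are filled for 75 of 77 genes, the siFOXA1 and siNT columns are mostly grey, and the upper rows carry both the FGFR1 and the stronger Pol II S5P peaks.

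Both untransfected FGFR1 lists shared the same 26 members, and the second list added 32 more. FGFR1 was found at 26 members in list 1 and at 58 in list 2. None was in list 1 only, 32 were in list 2 only, and 17 had no untransfected FGFR1 peak. The other marked genes had a peak in 29.8% of cases in list 1 and 61.7% in list 2, so the members in list 2, at 77.3%, lay 15.6 percentage points above the others, against 4.98 points for both lists. The share of members with FGFR1 therefore depends on which list is read. Among genes with Pol II S5P in both lists, list 2 held FGFR1 at 55 of 62 members and 6790 of 7661 other genes, about the same share.

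MRPL14, a protein of the subunit interface with a bacterial counterpart, had the strongest FGFR1 peaks of the family. Its gene lies at chr6:44113451-44127452, and its fold enrichment was 9.0 and 8.76 after siFOXA1, 10.7 and 8.15 after siNT, and 17.3 and 23.8 in untransfected cells. Its mean percentile in untransfected cells was 99.2. Pol II S5P stood at 14.8 and 14.1, and FOXA1 was in neither list. MRPS14, a small-subunit protein with a bacterial counterpart (chr1:175012958-175023425), followed with 5.15 and 5.32 after siFOXA1, 5.96 and 6.27 after siNT, and 10.5 and 16.2 in untransfected cells. FOXA1 lay at its promoter with 19.0 and 19.5. MRPL21, a large-subunit protein (chr11:68891278-68903832), had FGFR1 at both of its ends, about the length of the gene apart. At the higher-numbered end, where H3K4me3 was strongest, it had no peak and 5.63 after siFOXA1, 6.28 and 5.64 after siNT, and 7.05 and 13.5 in untransfected cells. At the lower-numbered end it had 5.47 and no peak after siFOXA1, and 6.90 and 5.33 after siNT. In untransfected cells that end had no peak in list 1 and at most 5.11 in list 2. The siFOXA1 peaks of MRPL21 in list 1 and list 2 were thus at different ends. MRPL14, MRPS14 and MRPL21 were the only members with a peak within 1 kb of some end in all 6 FGFR1 lists, 4% of the 75, beside 2.90% of other marked genes. When the peaks of both lists had to overlap, 2 members in place of 3 were counted after siFOXA1, beside 2.90% of other marked genes, and 6 after siNT as before.

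The other leading members had FGFR1 in untransfected cells and in fewer of the transfected lists. MRPL57, a protein added in the mitochondrial lineage, had 7.73 and 13.5 in untransfected cells and no peak after either siRNA. MRPS2, a counterpart of bacterial S2, had 7.07 after siFOXA1 in list 1 only, 5.96 and 7.52 after siNT, and 7.05 and 12 in untransfected cells. MRPL2, which lies close to the catalytic centre of the large subunit, had 4.08 in siNT list 1 only, and 6.82 and 10.7 in untransfected cells. These FGFR1 peaks were at the lower-numbered end of the gene. The strongest H3K4me3 peak of MRPL2 was at the other end in list 1 and at the lower-numbered end in list 2. The nearest other gene end, of CUL7, is 178 bp from an end of MRPL2. MRPL57, MRPS2 and MRPL2 each had both untransfected peaks and between none and 3 of the 4 transfected ones. The next 4 encode proteins added in the mitochondrial lineage. MRPS33 had 6.6 and 9.77 in untransfected cells and no peak after transfection. MRPL40 had 5.32 in siFOXA1 list 2 only, no siNT peak, and 6.6 and 9.33 in untransfected cells. MRPL41 had no siFOXA1 peak, 5.02 and 6.89 after siNT, and 6.14 and 11.1 in untransfected cells. Of these, MRPL40 and MRPL41 had a peak in some transfected list and MRPS33 in none. MRPS34 had no siFOXA1 peak, 4.71 and 4.70 after siNT, and 5.91 and 8.22 in untransfected cells. All 10 leading members had Pol II S5P in both lists, with folds from 7.45 to 23. From MRPL2 to MRPL41 the mean percentiles lay between 84.1 and 80.3, closer together than the 2 lists of each gene. The weakest of the 26, MRPL22, had a mean percentile of 30.4.

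FGFR1 and Pol II S5P went together from member to member. Of the 62 members with Pol II S5P in both lists, 26 had FGFR1 in both lists (41.9%, interval 30.5 to 54.3), and of the 13 without it none did (interval 0 to 22.8). Other marked genes with Pol II S5P had FGFR1 in 47.3% of cases and those without it in 5.30%. The difference, members minus other genes, was therefore -5.34 percentage points among genes with Pol II S5P, whereas it was 4.98 points over all marked genes. The sign of the difference between members and other genes thus turns with Pol II S5P in the background, and the interval of the members covers the background in both cases.

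In both lists together, FGFR1 was found mainly at the members with the strongest Pol II S5P peaks, and in list 2 alone it reached further down. The marked genes with Pol II S5P were split into 4 bins of about equal size by the mean Pol II S5P percentile, a split chosen after the counts above were seen. FGFR1 lay in both lists at 1 of 10 members in the lowest bin, 2 of 16 in the second, 5 of 17 in the third and 18 of 19 in the highest. The shares among other genes in these bins were 19.3%, 34.0%, 52.4% and 83.4%. In list 2 alone FGFR1 lay at 6 of 10, 13 of 16, 17 of 17 and 19 of 19 members from the lowest to the highest bin. Other genes in these bins had it in list 2 at 1344 of 1913, 1712 of 1922, 1828 of 1913 and 1906 of 1913. The high list 2 counts were thus not particular to the members. Most of the members with FGFR1 in list 2 were outside the highest bin. In the highest bin only MRPL20, chosen here after its values were seen, lacked FGFR1 in list 1, and it had a peak of 4.89 in list 2. The members with FGFR1 in the lower 2 bins, likewise named after their values were seen, were MRPL38, MRPS18C and MRPS33. Shares of members lay below those of other genes in the lower 3 bins and above them in the highest, with 10 to 19 members in each.

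**Figure D3:**
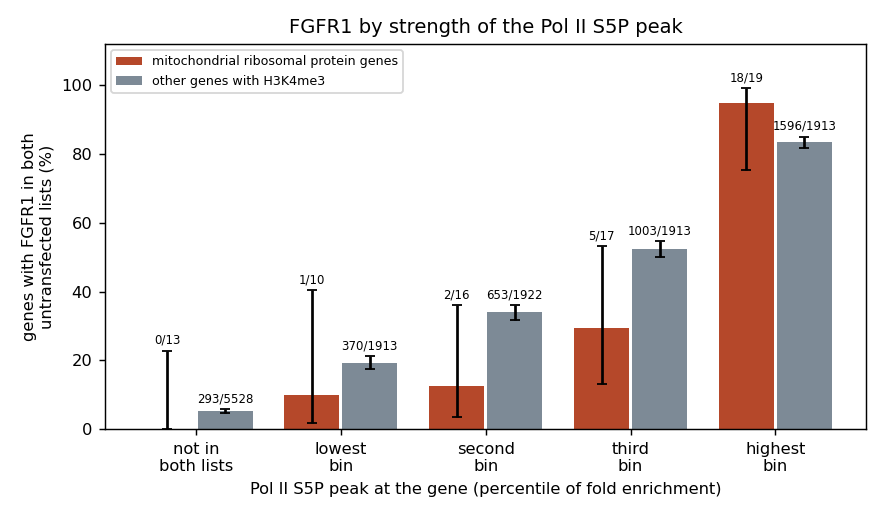
Share of genes (%) with FGFR1 in both untransfected lists, by the strength of the Pol II S5P peak, for mitochondrial ribosomal protein genes (left bar of each pair) and other genes with H3K4me3 (right bar). The counts on top of the bars are genes with FGFR1 over all genes of the bin, and error bars are 95% Wilson intervals. Members go from 0 of 13 without Pol II S5P in both lists to 18 of 19 in the highest bin.

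The share of members with FGFR1 differed less by FOXA1 than by Pol II S5P. FGFR1 lay at 16 of 41 members with FOXA1 in both lists (39.0%), beside 39.1% of other marked genes with FOXA1. It lay at 10 of 34 members without FOXA1 in both lists (29.4%), beside 22.3%. Within members that had Pol II S5P, the share was 16 of 38 with FOXA1 (42.1%) and 10 of 24 without it (41.7%). Other marked genes with Pol II S5P showed 52.4% with FOXA1 and 41.4% without. Among members with Pol II S5P, the 2 shares differed by far less than their intervals of 27.9 to 57.8 and 24.5 to 61.2.

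Of the 5 members with the strongest FOXA1 peaks, MRPL21 and MRPS14 had FGFR1 in both untransfected lists, beside 16 of all 41 members with FOXA1. MRPL21 led with FOXA1 folds of 47.6 and 48.6, followed by MRPL35, another large-subunit protein, with 47.1 and 43.5. MRPL21 also had the highest folds of the members for H3K27ac, 68.5 and 68.5, and for H3K4me3, 109 and 114. Whether extra copies of its region raised its values was not tested. MRPL50 had 33.4 and 32.4, and MRPS18A 33.4 and 31.7. Of these 4, MRPL21 alone had FGFR1 in both untransfected lists, and in list 1 only at the end away from its strongest FOXA1 peak. MRPS18A had it in list 2 only, at 6.44, and MRPL35 and MRPL50 had none. The FOXA1 summits of MRPL50 lay 9669 and 9601 bases after the annotated start and those of MRPS18A 15647 and 15675 bases after it, at the other end of the gene from the H3K4me3 peak. The strongest FOXA1 peaks of MRPL35 were likewise at the end away from its strong H3K4me3 peaks, which had folds of 81.7 and 83.4. In MRPL21 the FOXA1 folds of 47.6 and 48.6 were at the lower-numbered end, with H3K4me3 folds of 25.7 and 24.4. At its other end, with H3K4me3 folds of 109 and 114, FOXA1 had 13.4 and 11.4. The strongest FOXA1 peaks of all 4 thus lay away from the strongest H3K4me3 peak of the gene. MRPS14, the fifth, had its FOXA1 summits 39 and 26 bases before the start, close to its FGFR1 summits.

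Pol II S5P in both lists without FGFR1 in any of the 6 lists was seen at 7 of the 62 marked members with Pol II S5P. The same count over all 6 lists was not made for other genes. In untransfected list 2, FGFR1 lay at 55 of the 62 members and at 6790 of 7661 other genes with Pol II S5P. The 7 are therefore described as single genes and not as a trait of the family. MRPS30 (chr5:44808947-44815514) had Pol II S5P folds of 10.2 and 7.0, MRPS15 (chr1:36455718-36464384) 8.46 and 7.0, and MRPL51 (chr12:6491886-6493262) 7.14 and 7.45. MRPL33, MRPL19, MRPL50 and MRPL43 had Pol II S5P folds between 5.22 and 6.92. Their mean Pol II S5P percentiles ran from 45.5 in MRPL43 to 71.4 in MRPS30, against a median of 79.0 over all members with that mark, so all 7 lay in the lower part of the range. In all, 17 marked members lacked FGFR1 in every FGFR1 list (22.7%, beside 37.6% of other marked genes). Pol II S5P was absent from both lists at 3 of these, MRPL16, MRPL28 and MRPL45, named after their values were seen. MRPL45, whose protein helps anchor the ribosome at the inner membrane, also had the lowest H3K4me3 folds of the family, 30.04 and 30.6.

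No marked member had FGFR1 in both untransfected lists without Pol II S5P in both lists. Of the 75, 16 carried FGFR1, Pol II S5P and FOXA1 in both lists (21.3%, beside 16.3% of other marked genes). FGFR1 and Pol II S5P without FOXA1 lay at 10 (13.3%, beside 11.1%), and Pol II S5P and FOXA1 without FGFR1 at 22 (29.3%, beside 14.9%). Pol II S5P alone lay at 14 (18.7%, beside 15.8%), FOXA1 alone at 3 (4%, beside 12%) and none of the 3 at 10 (13.3%, beside 27.7%). Members thus exceeded other genes most in the pattern of Pol II S5P with FOXA1 and without FGFR1. In these patterns, without FGFR1 means not in both lists, and most such members had FGFR1 in list 2. In list 2, FGFR1 lay at 34 of 38 members with Pol II S5P and FOXA1, beside 3739 of 4117 other genes. It lay there at 21 of 24 members with Pol II S5P and without FOXA1, beside 3051 of 3544. Among other marked genes 1.34% had FGFR1 alone and 0.88% FGFR1 with FOXA1 alone.

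Both subunits of the ribosome were represented. FGFR1 lay in both untransfected lists at 13 of 47 marked MRPL genes (27.7%, interval 16.9 to 41.8) and at 13 of 28 MRPS genes (46.4%, interval 29.5 to 64.2). The intervals overlap, and in list 2 alone the counts were 34 of 47 and 24 of 28. Pol II S5P lay at 38 of 47 MRPL genes (80.9%) and 24 of 28 MRPS genes (85.7%). In structures of the ribosome MRPS18A and MRPS30 sit in the large subunit in spite of their symbols. Counted there, a regrouping made after the values were seen, FGFR1 lay at 13 of 49 large-subunit genes (26.5%) and 13 of 26 small-subunit genes (50%). By origin, a grouping from background knowledge that was also added after the values were seen, FGFR1 lay at 16 of 46 genes for proteins with a bacterial counterpart (34.8%) and at 10 of 29 for proteins added in the mitochondrial lineage (34.5%). Pol II S5P lay at 40 of the 46 and at 22 of the 29. The shares with FGFR1 by origin differed by 1 member or less.

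In 2 members there was no H3K4me3 peak within 1 kb of an annotated end. MRPL44, which has a ribonuclease III-like fold, spans chr2:223950854-223967714 in the gene table, and its annotated start is base 223957463, inside that span. Around this start lay H3K4me3 peaks with folds of 93.7 and 98.4, an FGFR1 peak of 4.89 in untransfected list 2 and a Pol II S5P peak of 4.27 in list 1. MRPL44 therefore missed the rule through its annotated ends, and its start was marked. MRPL23 (chr11:1947332-2014944) had no peak of any list inside the gene, and its nearest H3K4me3 peaks were 3032 and 3183 bp from an end.

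After siFOXA1, fewer members had an FGFR1 peak than after siNT, in the same proportion as other marked genes. FGFR1 lay at 6 members in siFOXA1 list 1 and 4 in siFOXA1 list 2, against 11 in siNT list 1 and 10 in siNT list 2. Both siFOXA1 counts were below both siNT counts. The means were 5 ± 1.41 after siFOXA1 and 10.5 ± 0.707 after siNT (SD, n = 2 each), a difference of -5.5 (siFOXA1 minus siNT) and a ratio of 0.476. The exact permutation test over the 4 lists gave a two-sided p = 0.33, the smallest that 2 against 2 allows. Other marked genes numbered 814 and 675 after siFOXA1 against 1462 and 1674 after siNT, a ratio of 0.475. At a stricter threshold of the authors' -log10 q of at least 5, the members numbered 4 and 4 after siFOXA1 against 5 and 6 after siNT, a difference of -1.5. With all 4 lists cut to 4332 peaks the difference was -4. The direction was the same in each of these counts, and its size was smaller at the stricter threshold.

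**Figure D4:**
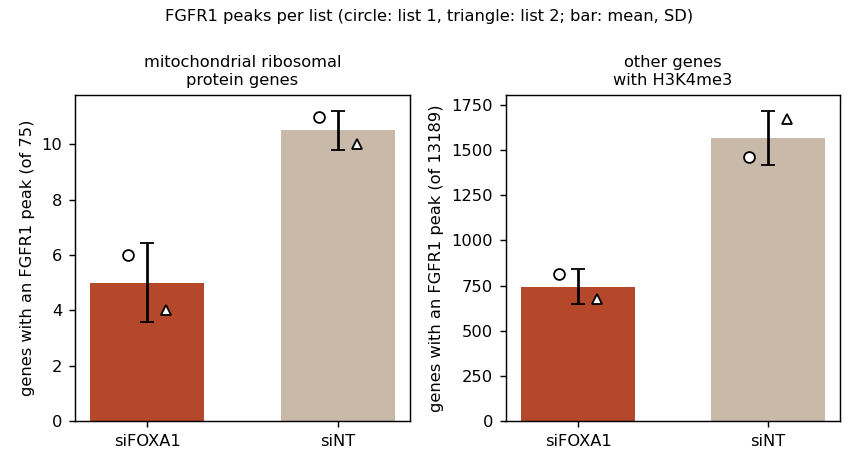
Number of genes with an FGFR1 peak in each transfected list, for mitochondrial ribosomal protein genes (left panel, of 75) and other genes with H3K4me3 (right panel, of 13189). Bars are means with SD over 2 lists, and the circle and triangle are list 1 and list 2. The siFOXA1 bar stands at 5 of 75 members against 10.5 after siNT, and the right panel shows the same ratio.

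Few members stood behind these counts. MRPL14 and MRPS14 had FGFR1 at the same promoter in both siFOXA1 and both siNT lists. MRPL21 had it in these 4 lists too, but at a different end in each siFOXA1 list, as given above. MRPL41 and MRPS34 had it in no siFOXA1 list and in both siNT lists (2.67% of members, beside 2.56% of other marked genes), and MRPS2 had it in 1 siFOXA1 list and both siNT lists. MRPL14 had no FOXA1 peak in untransfected cells, whereas MRPS14 had FOXA1 at the promoter that carried FGFR1. Of the pair without siFOXA1 peaks, MRPL41 had FOXA1 folds of 8.14 and 7.50 and MRPS34 had none. FOXA1 peaks were thus present and absent among members with and without siFOXA1 peaks. A peak in no siFOXA1 list and at least 1 siNT list was seen at 10 members (13.3%, beside 9.54%), and the reverse at MRPL40 and MRPS26 (2.67%, beside 1.38%). All 17 members with a peak in any transfected list (22.7%, beside 17.6% of other marked genes) also had one in untransfected cells. Other marked genes had few exceptions, with no untransfected peak at 72 of 2316 that had a transfected one. The peaks need not be at the same site. In MRPS23, named after its values were seen, the siNT peak and the strongest untransfected peak were at opposite ends.

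The members MRPL11, MRPL21, MRPL49 and MRPS14 lie in 1-Mb windows where the transfected lists hold more than 10 times the mean number of FGFR1 peaks, 34 windows in all. Without these 4 genes, FGFR1 lay in both siFOXA1 lists at 1 of 71 members, MRPL14, in place of 3 of 75, beside 2.15% of other genes outside these windows. It lay in both untransfected lists at 24 of 71 (33.8%, beside 28.3%). The siFOXA1 minus siNT difference stayed at -5.5.

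Members lay closer to other genes than marked genes did in general. An end of another protein-coding gene was within 2 kb at 52 of 75 members (69.3%), beside 45.0%, and the median distance was 812 bp, beside 2999 bp. Some of these neighbours also act in mitochondria. The nearest end was 27 bp away for MRPL36 and NDUFS6, which encodes a subunit of respiratory complex I, 46 bp for MRPL43 and TWNK, the mitochondrial DNA helicase, and 181 bp for MRPS12 and SARS2, the mitochondrial seryl-tRNA synthetase. MRPL46 and MRPS11, both members, lie 320 bp apart and share the same peaks. These pairs were named after their distances were seen. A peak in such a window cannot be given to one gene of the pair. FGFR1 lay in both untransfected lists at 18 of the 52 members near another end (34.6%, beside 34.3%) and at 8 of the 23 others (34.8%, beside 25.9%). Among these 23, no member had peaks in both lists after siFOXA1 (beside 3.27% of all other marked genes) or after siNT (beside 7.6%), which at 23 genes is close to the background.

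Peak summits showed where at the promoter each target lay. The summit of the strongest FGFR1 peak at a member had a median position of -19.5 bp from the nearest annotated start in untransfected list 1 and 9.5 bp in list 2, with 20 of 22 and 49 of 52 members within 500 bp. Other marked genes had medians of -37 and -26 bp, with 85.5% and 86.0% within 500 bp. Pol II S5P summits had medians of 30 and 18 bp, H3K27ac 155 and 134.5 bp, and H3K4me3 215 and 207.5 bp after the start, so FGFR1 and Pol II S5P sat at the start and the histone marks downstream of it. FOXA1 summits had medians of -78 and -34 bp, with 25 of 39 and 26 of 40 members within 500 bp (64.1% and 65%). Among other marked genes 53.5% in each list were within 500 bp, so distant FOXA1 summits were not particular to members. Median FGFR1 peak width was 359 and 417.5 bp at members, beside 338 and 451 bp at other marked genes.

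**Figure D5:**
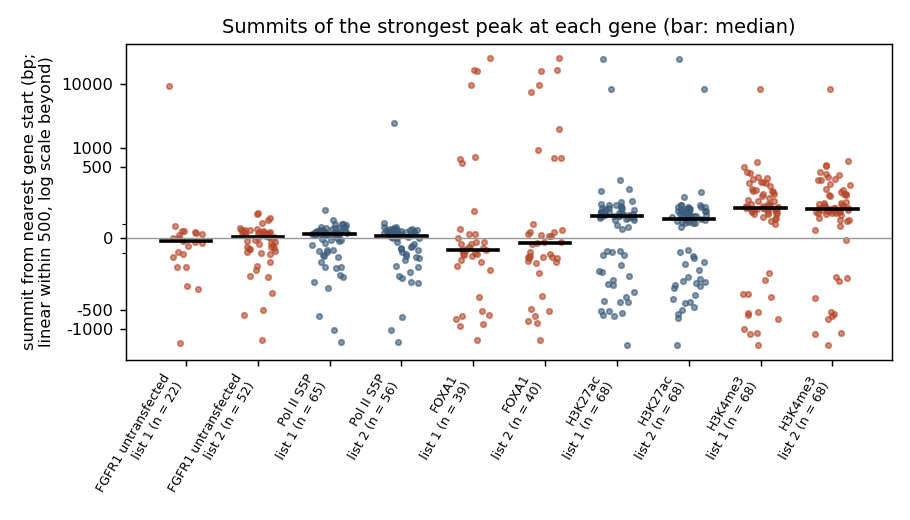
Position of the summit of the strongest peak at each mitochondrial ribosomal protein gene, in base pairs from the nearest annotated start (positive: downstream), by target and list; the axis is linear within 500 bp and logarithmic beyond. Points are genes and bars are medians. FGFR1 and Pol II S5P summits cluster at the start, the histone marks centre 134.5 to 215 bp downstream, and FOXA1 has a tail of distant summits.

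ETS and YY1 matches were more frequent in promoters of members than of other marked genes, and NRF1 matches were about as frequent. The RefSeq table held promoters for 68 of the 75 marked members. These genes had 84 promoters, and 10769 other marked genes had 15396. A gene was counted if any of its promoters matched, so genes with more promoters had more chances to match. Shares of all promoters are per promoter and not per gene. CCGGAAG was found on either strand at 30 of 68 members (44.1%), beside 21.3% of other marked genes, and in 10.3% of all 35116 promoters of the same length. AAGATGGCG, for YY1, was found at 13 members (19.1%), beside 4.36%, and in 1.75% of all promoters. Per promoter, CCGGAAG was in 39.3% at members beside 16.3%, and AAGATGGCG in 15.5% beside 3.22%. GCGCNTGCG, for NRF1, was found at 12 members (17.6%), beside 16.4%, and in 7.47% of all promoters, and its exact form GCGCATGCG at 3 (4.41%), beside 4.12%. GGGCGG, for SP1, was found at 41 members (60.3%), beside 77.3%, and CCAAT at 22 (32.4%), beside 42.8%. Per promoter these gaps were smaller, with GGGCGG in 59.5% beside 66.6% and CCAAT in 32.1% beside 34.7%. The forkhead words TGTTTAC and TGTTTGC, the kind of letters FOXA1 binds, were found at 0 and 2 members, beside 3.35% and 3.90%. TATAAA was found at 3 (4.41%), beside 8.39%, and CACGTG, the E-box, at 9 (13.2%), beside 12.7%. TGACGT was found at 6 (8.82%), beside 13.7%, and TGACGTCA, which holds it, at 1 (1.47%), beside 3.71%. Per promoter, TGACGT was in 8.33% beside 10.4%. Among members with FGFR1 in both untransfected lists, CCGGAAG was found at 7 of 22 (31.8%), against 8 of 16 (50%) among members with no FGFR1 peak in any list. AAGATGGCG was found at 4 of the 22 and 3 of the 16. A match is a description of letters and not a bound site.

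Other nuclear genes of mitochondrial translation, together with genes of mitochondrial DNA transcription, had a share with FGFR1 close to the background, as the ribosomal proteins did. In 5 lists, 65 such genes were used, of which 64 were marked. FGFR1 lay in both untransfected lists at 21 of 64 (32.8%), beside 29.7% of other marked genes, and Pol II S5P at 54 (84.4%), beside 58.1%. By list, FGFR1 lay at 2 of 6 ribosomal proteins under other symbols, 2 of 14 translation factors, 6 of 23 assembly factors, 9 of 16 mitochondrial tRNA synthetases and 2 of 5 genes of mitochondrial DNA transcription. The leading tRNA synthetase genes were CARS2 with folds of 9.55 and 13.1, VARS2 with 7.28 and 9.77, and AARS2 with 6.82 and 9.10. Among ribosomal proteins under other symbols, DAP3, a small-subunit protein that lies in a crowded window, had 7.96 and 14.2, and AURKAIP1 had 6.82 and 10.7. MTERF1, which binds mitochondrial DNA, had 10.2 and 17.1, and TEFM, an elongation factor of mitochondrial transcription, had 4.78 and 5.11. These leading tRNA synthetases, DAP3, AURKAIP1 and MTERF1 reached higher folds than the translation factors, where GFM2 had 4.09 and 6.88 and MTIF3 had 3.64 and 4.44. The leading assembly factors were MTERF3 with 6.37 and 9.77, MTERF4 with 5.0 and 7.77, and MRM2 with 5.0 and 5.55. These lists hold 5 to 23 marked genes each, and no test was made between them.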

How the data were processed

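ChIP-seq peak lists from CAMA1 cells were analysed as deposited, 2 per group, 14 in all. Per the labels' protocols, DNA was sonicated and libraries were read on an Illumina NextSeq 500. The submitters' processing notes name hg38, Bowtie2, SAMtools, Picard and MACS2, without roles or versions. Each library has its own deposited list, so peaks were not pooled. A deposited row holds the authors' fold enrichment, which is a ratio to background on a linear scale, their -log10 of the p-value and of the q-value, and a summit. In 12 lists the fold enrichments fit a single background for the genome, so a region with more copies would have raised values. The deposited score was not used. For untransfected FGFR1 the peak names carry the other replicate number, and for FOXA1 they read FOXA2. The labels were followed.

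Chromosomes 1 to 22 and X were kept, which left out 0.0227% to 2.74% of rows. A gene had a peak if one overlapped the 1 kb to each side of either end by at least 1 bp. Ends came from RefSeq GRCh38.p14, which gives no exons here, and 69 of 77 members had promoter entries. A group call needs a peak in both lists. Shares carry 95% Wilson intervals, and the transfected counts were compared by an exact permutation test. Calls were made with Python 3.11.15, numpy 2.4.6, pandas 2.3.3 and scipy 1.17.1, and the scoring was tested on simulated data. No test over the gene list was made. The members and lists were chosen with earlier results of these data known.

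Genes were named by a rule. It took members without H3K4me3, the 10 strongest by untransfected FGFR1, and those with FGFR1 in both lists after either siRNA. It also took up to 8 with Pol II S5P and no FGFR1, the 5 strongest by FOXA1, members in crowded windows and up to 3 of each other list, the strongest by FGFR1 in both untransfected lists. MRPS18B, MRPL22 and MRPS26 were named after their values were seen, and other exceptions are said where they occur.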

Additional observations from a re-analysis of the deposited data

How the results depend on the processing

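Removing members near another gene end left 23 marked members, of which 0 had a peak in both lists after siFOXA1, 0 after siNT, 8 in untransfected FGFR1, 20 in Pol II S5P, 23 in H3K27ac, 23 in H3K4me3 (of 25) and 14 in FOXA1. By construction these counts are over fewer genes. Without the crowded windows, 1 member had FGFR1 in both siFOXA1 lists. With single lists in place of both, the counts were 4 to 6 after siFOXA1, 10 to 11 after siNT, 26 to 58 in untransfected FGFR1, 62 to 72 in Pol II S5P, 46 in each FOXA1 list, and 75 in each list of both histone marks. Windows of 500 bp or 3 kb, annotated starts only, the stricter q and the overlap rules gave 19 to 29 members with untransfected FGFR1. The background of other genes moved the difference for FGFR1 from 4.98 points to -12.6 with Pol II S5P required of the other genes alone and to 15.0 over all genes. The siFOXA1 minus siNT difference was -6.5 to -4.5 with single lists left out and -5.5 with the replicate block (exact p = 0.5, the smallest that a pair of differences allows). Deviations of list 1 from list 2 were not correlated between siFOXA1 and siNT (r = -0.00562 over 13264 genes). The replicate numbers thus gave no sign of pairing. With peaks at few genes in each list, this cannot exclude that the libraries were prepared in pairs. The lists used here hold no read counts, so no floor was set. Depth limits what absence of a peak can show: a gene without a peak may carry signal below the authors' threshold, most of all in the shallower transfected lists.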
